A study of Mus musculus with 4 samples.

Results

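The transcripts described here encode the synaptic vesicle and release machinery of neurons, and they were measured in RNA that CPEB2 antibody or control IgG recovered from mouse brain lysate. Members were taken by gene symbol from the array annotation: the synaptotagmins, synapsins, synaptophysin family, synaptogyrins, SV2 proteins, VAMPs, syntaxins and their binding proteins, complexins, Unc13, Rims and Doc2 proteins, Erc1, Erc2, Snap23, Snap25, Snap29, Snap91, Rph3a, Bsn and Pclo. They came to 85 genes of the 24185 symbols on the array, with 139 probes, and 36 of the 85 had more than 1 probe. Stx19 was not well above background on any array, at signals of 3.48 and 3.93 in the CPEB2 IgG precipitate and 3.52 and 3.83 in the control precipitate, so 84 members were tested, and 83 of these were well above background on all 4 arrays. The exception was Stx11, at 24.4 and 25.9 against 10.8 and 53.3. Signals below are processed spot intensities of experiments 1 and 2 in that order, first with CPEB2 IgG and then, after the word against, with control IgG.

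RNA immunoprecipitation (RIP) recovers a protein together with the RNA that it holds, and RNA recovered by non-specific IgG serves as the background. The lysate came from cortex and hippocampus of male C57BL/6 mice aged 8 weeks, for which the labels give no treatment or transgene, and was divided between CPEB2 IgG beads and control IgG beads in each of 2 experiments. The 2 groups differed by the antibody, and by its positions on the slide, with 2 arrays each, and how many mice went into a lysate is not given in the sources used here. A text field of the CPEB2 IgG samples says CPEB3 IgG, while their titles and the protocol say CPEB2. Bulk lysate mixes all cells, so the cell type that a recovered transcript came from cannot be told. RNA of neurons was present on every array, as all 5 neuronal markers were well above background on all 4 arrays. All 11 markers of astrocytes, oligodendrocytes, microglia and endothelium were likewise above background on all 4.

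Release of transmitter runs through a fixed set of proteins. Vesicles are docked and primed at the active zone by scaffolds such as Bassoon, Piccolo, ERC and Rim proteins and by Munc13 (Unc13). Fusion is driven by SNARE proteins, with synaptobrevin (VAMP2) on the vesicle and syntaxin 1A and SNAP-25 on the plasma membrane, aided by complexin, and it is triggered by calcium binding to synaptotagmin. Many relatives of these proteins work outside the synapse, in endosomes, Golgi or secretion from other cells. CPEB2 is an RNA-binding protein that recognizes the U-rich cytoplasmic polyadenylation element (CPE, UUUUAU or UUUUAAU) in the 3′ ends of mRNAs and controls their translation. The study asked which presynaptic mRNAs CPEB2 binds, and comparing CPEB2 IgG with control IgG shows which transcripts of this machinery were more or less abundant in the CPEB2 precipitate.

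Most members did not differ between the antibodies by the test. Of the 84, 12 were higher with CPEB2 IgG (14.3%), 14 were lower (16.7%) and 58 passed in neither direction, at a limma adjusted p under 0.05 with Benjamini-Hochberg adjustment over all 19698 genes tested. Over all genes, 21.2% were higher and 20.4% were lower, and whether the members' shares differ from these was not tested. Their median log2 fold change was -0.04, with the middle 50% between -0.60 and 0.47, beside a median of -0.11 and a middle 50% from -0.76 to 0.71 over all genes. The study selected transcripts by fold, raw signal and a CPE in the 3′-UTR. Limits on the first 2, applied here as a mean fold above 1.5 and a raw signal over 1000 in 1 or both CPEB2 precipitates, left 14 members (16.7%) against 16.4% of all genes. These were 11 of the 12 members called higher, all but Vamp3 with its low signal, and Stx12, Sv2a and Sypl, which limma did not call (Stx12 and Sypl were not chosen by the naming rule and are listed to complete the count). Sv2a lay just inside the fold limit at 1.55 and Stx1a just outside at 1.47. The direction was the same in both experiments for 67 of 84 members (79.8%), beside 79.7% of all genes.

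The split between higher and lower members depended on how the arrays were scaled and on the probe chosen. Centring each array on its median gave 17 higher and 11 lower members, and centring by bins of the probes' GC content gave 15 higher and 9 lower. In the other direction, the 75th percentile over probes well above background on all arrays gave 10 higher and 17 lower, and the mean of a gene's probes gave 9 and 17. Without a filter on dim probes, 4 members were higher (Stx4a, Stx6, Syngr2 and Vamp3) and 5 were lower (Erc1, Rph3a, Stx18, Stx8 and Syn1). Leaving out control IgG replicate 1 gave 7 higher and 9 lower members, control IgG replicate 2 gave 9 and 7, CPEB2 IgG replicate 2 gave 9 and 9, and CPEB2 IgG replicate 1 gave 15 and 14. Stx4a, Syngr2 and Vamp3 among the higher members, and Erc1, Rph3a, Stx8 and Syn1 among the lower, kept their call in all 17 alternative fits.

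**Figure D1:**
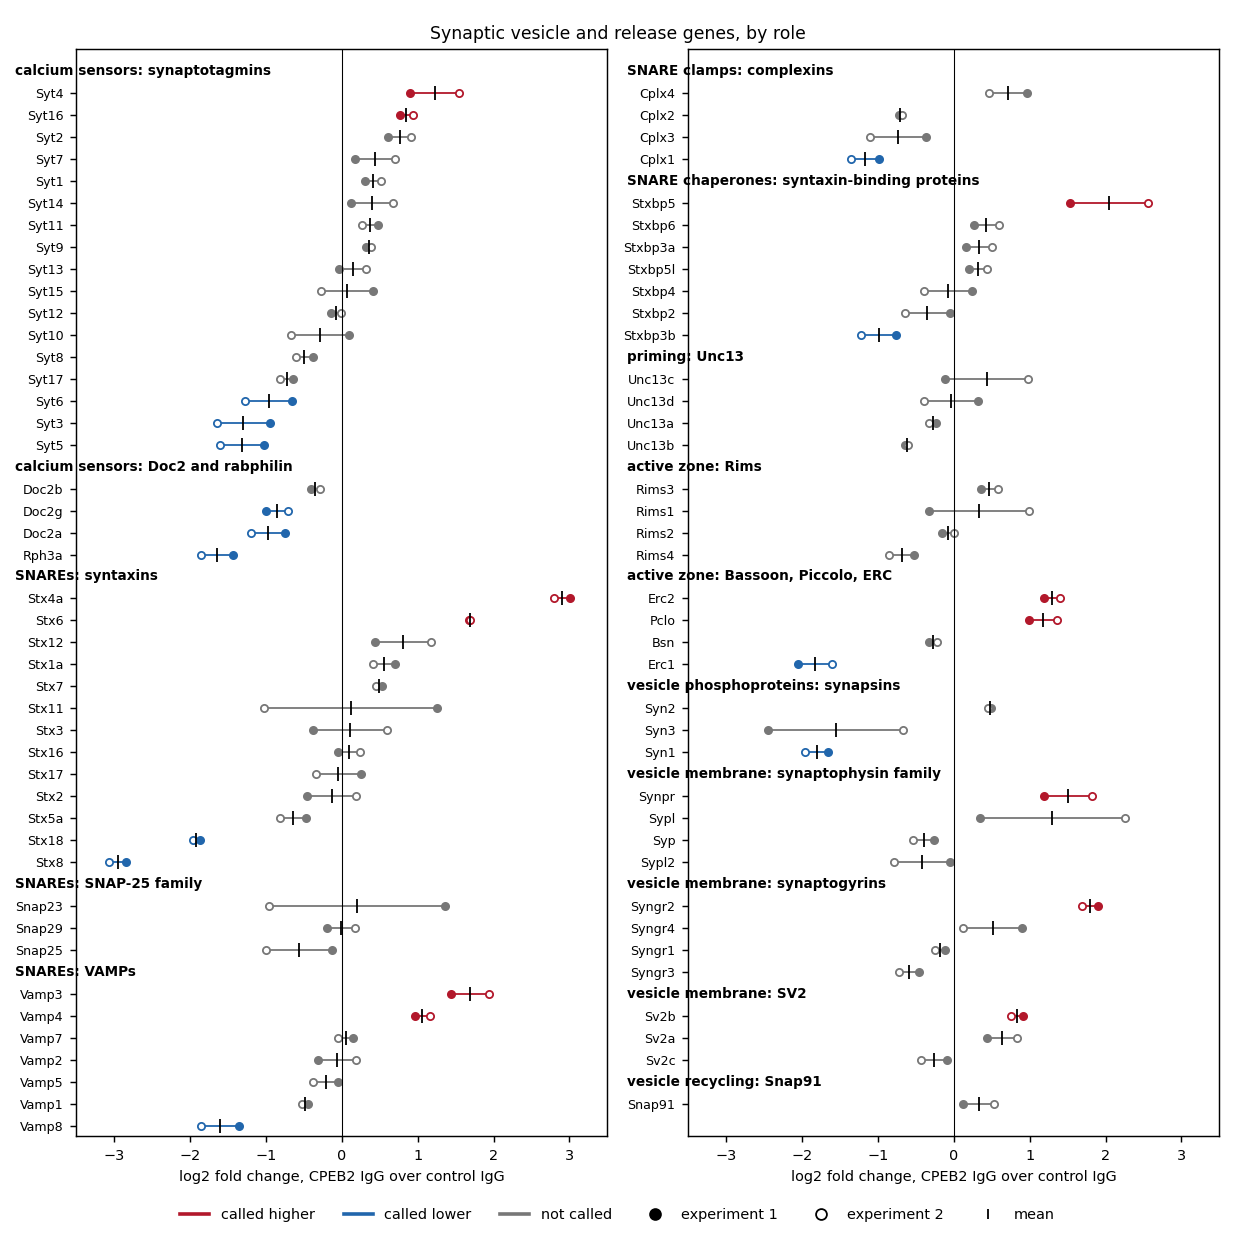
Log2 fold change of CPEB2 IgG over control IgG for 82 of the 84 tested members, grouped by role, with filled points for experiment 1, open points for experiment 2 and a bar for their mean, in red or blue where limma called the gene higher or lower. Most members lie close to 0, and the called members spread from Stx8 at -2.95 to Stx4a at 2.90.

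Snap25, Vamp2, Syt1 and Stx1a, all central to fusion, passed in neither direction. Snap25, the SNARE of the plasma membrane, had signals of 16160 and 16404 against 18697 and 33204. Its log2 fold change was -0.56 ± 0.30 (SE, n = 2 experiments, limma adjusted p = 0.203), with nearly all of the difference in experiment 2. Here and below, SEs and 95% intervals are those of the limma fit, which draws each variance towards a value common to all genes or probes tested. They do not measure the spread of the 2 experiments alone. Vamp2, the vesicle SNARE, gave 28841 and 41214 against 37839 and 36632. The groups overlapped, and the log2 fold change of -0.06 had a 95% interval from -0.73 to 0.62. Syt1, the fast calcium sensor, gave 62378 and 60340 against 53571 and 42992. Both CPEB2 IgG arrays were above both control arrays. The log2 fold change of 0.41 (95% interval -0.21 to 1.02) did not pass the test (limma adjusted p = 0.225). Its mean fold of 1.33 was also below the study's fold limit as applied here. The paper lists Syt1 among its CPEB2-bound transcripts and reports its binding by RT-qPCR of hippocampal precipitates, with Gapdh as reference. The reason for this difference was not tested. Stx1a, the syntaxin of the plasma membrane that pairs with SNAP-25, gave 8000 and 9632 against 5209 and 7338, a log2 fold change of 0.56 ± 0.24 (SE) that did not pass (limma adjusted p = 0.125). It did pass with normexp correction (log2 fold change 0.53, limma adjusted p = 0.0388), with an intensity trend (limma adjusted p = 0.0346) and with either GC adjustment (log2 fold changes of 1.03 and 0.92, limma adjusted p = 0.0171 and 0.0288).

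**Figure D2:**
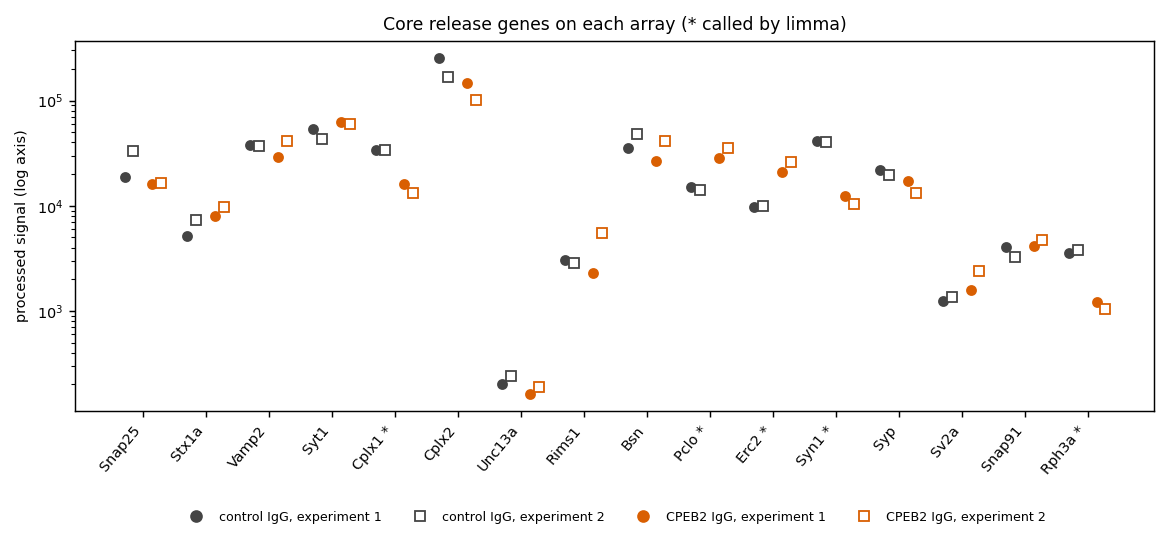
Processed signal of 16 core release genes on each array, on a log axis, with grey for control IgG, orange for CPEB2 IgG, circles for experiment 1 and squares for experiment 2. Each gene has its own probe, so only symbols of the same gene compare, and the 5 genes with a star (Cplx1, Pclo, Erc2, Syn1 and Rph3a) show a gap between the antibodies that limma called.

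The largest rise and the largest fall among the called members were both in syntaxins known mainly for membrane traffic other than transmitter release. Stx4a, a plasma membrane syntaxin of regulated exocytosis in many cell types, gave 70656 and 54586 against 9353 and 7972. Every CPEB2 IgG value was several times every control value, and the fold was 7.46 (log2 2.90 ± 0.23 SE, limma adjusted p = 0.00543). Its second probe, with 9520 and 6398 against 1160 and 1106, gave a log2 fold change of 2.84. The Stx4a probes at chr7:134992131-134992273 and chr7:134992420-134992479 (mm9, plus strand) both read higher with CPEB2 IgG. Stx8, a syntaxin of late endosomes, gave 93.6 and 95.2 against 708 and 807, a log2 fold change of -2.95 ± 0.24 (SE, limma adjusted p = 0.00543), which is 7.72-fold lower. The other Stx8 probe did not pass the filter, at 3.25 and 3.63 against 3.21 and 3.54, so this value rests on a single probe. Stx6, of the trans-Golgi network and endosomes, gave 6441 and 6396 against 2137 and 2010 and was 3.21-fold higher (log2 1.68 ± 0.23 SE, limma adjusted p = 0.00761). With the probes of the gene averaged, its call was lost (log2 fold change 0.59, limma adjusted p = 0.109). Of the 14 syntaxins tested, 9 passed in neither direction.

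Among the VAMPs, 2 of 7 were higher and 1 was lower. Vamp3 (cellubrevin), a SNARE of recycling endosomes, gave 471 and 644 against 183 and 170, a log2 fold change of 1.69 ± 0.26 (SE, limma adjusted p = 0.00934). Vamp8, an endosomal SNARE of regulated secretion, gave 305 and 183 against 824 and 672, a log2 fold change of -1.60 ± 0.26 (SE, limma adjusted p = 0.0107). Neither pair of groups overlapped. Vamp4, chosen after its values were seen and known from the trans-Golgi network, gave 2423 and 2732 against 1321 and 1242 and was 2.08-fold higher (limma adjusted p = 0.0239), a call lost without either control IgG array and when its probes were averaged, as its other probe was at -0.41. No member of the SNAP-25 family passed the test at its brightest probe.

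Of the syntaxin-binding proteins, Stxbp5 (tomosyn), which binds syntaxin in place of VAMP and inhibits release, was the only one of 8 called higher. It gave 1493 and 3123 against 546 and 539, above both control values on each array, with a log2 fold change of 1.53 in experiment 1 and 2.56 in experiment 2 (mean 2.05 ± 0.33 SE, limma adjusted p = 0.0108). The gene listed as Stxbp3b, now annotated as a pseudogene of Stxbp3 and chosen after its values were seen, was lower (log2 fold change -0.99, limma adjusted p = 0.0353). Its call held in 10 of the 17 alternatives and was lost without either control IgG array or CPEB2 IgG replicate 2, without the block, with median centring and with GC bins.

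Of the 4 complexins, which clamp and then aid the SNARE complex, Cplx1 was called lower and the others passed in neither direction. Cplx1 gave 16023 and 13140 against 33587 and 34191. The control values were all higher, and the log2 fold change was -1.17 ± 0.24 (SE, limma adjusted p = 0.0209), a call lost without control IgG replicate 1 (limma adjusted p = 0.0554) or replicate 2 (limma adjusted p = 0.067). Cplx2 had 5 probes. The brightest, with 146063 and 102190 against 256091 and 166781, gave a log2 fold change of -0.71 ± 0.23 (SE) that did not pass (limma adjusted p = 0.0662). Of its 5 probes, 4 shared runs of 20 or more bases, on either strand, with probes not annotated to Cplx2, and 2 of those 4 are placed by the array annotation on chromosomes 5 and 6, away from the Cplx2 gene on chromosome 13. The fifth shared no such run, and it was lower in the fit over single probes (log2 fold change -1.50 ± 0.28 SE, limma adjusted p = 0.0166). So was 1 of the 4 (log2 fold change -1.35 ± 0.28 SE, limma adjusted p = 0.0228), which shared a run with 4 such probes, and the other 3 were not called. The base sequences show the difference. Each line below gives 30 bases of the 60-base probe, 5′ to 3′ in the sense of the mRNA, with capitals for bases in runs of at least 20 that probes not annotated to the gene share:
Cplx2 brightest probe, chr13:54481316-54481375 (mm9, plus strand): GAGAAGGAGGAGGAGGAGGAGGAGAAGGAG
Cplx2 downstream probe, chr13:54485200-54485259 (mm9, plus strand): atgcaaatgctaagatgatgtacaaaacca
Snap25 probe, chr2:136607709-136607768 (mm9, plus strand): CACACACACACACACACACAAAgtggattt
Snap23 brightest probe, chr2:120425750-120425809 (mm9, plus strand): agATACACACACACACACACACACACATGa
The brightest Cplx2 probe shared such a run with 18 probes, the Snap25 probe with 70 and the Snap23 probe with 79. The Snap25 value above rests on this probe alone, and how much of its signal came from other transcripts was not tested. In all, 8 of the 139 member probes shared such a run with a probe not annotated to their gene.

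The proteins that prime vesicles, Munc13 and Rim, passed in neither direction at the brightest probe of any of their 8 genes. Unc13a, the main Munc13 of excitatory synapses, gave 163 and 190 against 202 and 241 (log2 fold change -0.28, 95% interval -0.88 to 0.33), while its upstream probe was lower in the fit over single probes (log2 fold change -1.37). The other probe of Unc13d, chosen after its values were seen, was also lower in that fit (log2 fold change -1.19, limma adjusted p = 0.0379). Rims1 gave 2275 and 5547 against 3023 and 2837. The experiments pointed in opposite directions, at -0.33 and 0.99, and the log2 fold change of 0.33 had a 95% interval from -0.67 to 1.33. Without CPEB2 IgG replicate 1, Rims1 was called higher (log2 fold change 0.98, limma adjusted p = 0.033), as was Unc13c, chosen after its values were seen.

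The large scaffolds of the active zone were split. Pclo (Piccolo) gave 28244 and 35326 against 15091 and 13981, 2.26-fold higher (log2 1.17 ± 0.25 SE, limma adjusted p = 0.0208). The other Pclo probes were at log2 fold changes of 0.06, -0.09 and 0.77, and none of them was called in the fit over single probes. Bsn (Bassoon), the homologue of Pclo, gave 26538 and 40842 against 35188 and 48226. These ranges overlapped, and the log2 fold change of -0.27 had a 95% interval from -0.88 to 0.34. Erc2, the ERC protein of synapses, gave 20714 and 25818 against 9660 and 9963 and was 2.45-fold higher (log2 1.29 ± 0.23 SE, limma adjusted p = 0.0145). Erc1, the relative found in most cells, gave 68.5 and 76.8 against 300 and 238 and was lower (log2 -1.83 ± 0.25 SE, limma adjusted p = 0.00767). The calls of Pclo and Erc2 were lost when all probes of a gene were averaged (log2 fold changes of 0.48 and 0.35), and without control IgG replicate 1 (limma adjusted p = 0.0591 and 0.0532). That of Pclo was also lost without control IgG replicate 2 (limma adjusted p = 0.0647). The difference in fold change between the paired genes was not itself tested.

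Calcium sensors other than Syt1 included called members in both directions, and those in this paragraph except Rph3a were chosen after their values were seen. Of 17 synaptotagmins, Syt4 and Syt16 were higher and Syt3, Syt5 and Syt6 were lower. Syt16 kept its call in 12 of the 17 alternatives, Syt3 in 14 and Syt6 in 8, and all 3 calls were lost without CPEB2 IgG replicate 2 or control IgG replicate 2, and those of Syt16 and Syt6 also without control IgG replicate 1. Syt4, which is also found on dense-core vesicles, gave 2738 and 5028 against 1559 and 1746 (log2 fold change 1.22, limma adjusted p = 0.025), and its call was lost without either control IgG array or CPEB2 IgG replicate 2. Syt5 gave 3854 and 3080 against 8310 and 9488 (log2 fold change -1.31, limma adjusted p = 0.019), a call lost without control IgG replicate 2. Of the 4 members with Doc2 and rabphilin C2 domains, 3 were lower (Rph3a, Doc2a and Doc2g), beside 20.4% of all genes, and whether the shares differ was not tested. The call of Doc2a held in 10 of the 17 alternatives and was lost without either control IgG array or CPEB2 IgG replicate 2. It was also lost with median centring, with either GC adjustment and without a filter on dim probes. Rph3a (rabphilin), a Rab3 effector on vesicles, gave 1226 and 1038 against 3520 and 3814, a log2 fold change of -1.65 ± 0.25 (SE, limma adjusted p = 0.0093). Doc2g gave 729 and 54.3 against 1538 and 90.5. Its value followed the experiment more than the antibody, with both arrays of experiment 1 high, and the log2 fold change of -0.85 (limma adjusted p = 0.0448) kept its call in 6 of the 17 alternatives and lost it on leaving out any 1 array.

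Proteins of the vesicle itself were likewise divided. Syn1 (synapsin I), which tethers vesicles in the reserve pool, gave 12347 and 10322 against 41210 and 40683, 3.5-fold lower (log2 -1.81 ± 0.24 SE, limma adjusted p = 0.00729). Syp (synaptophysin), the most used vesicle marker, gave 17300 and 13313 against 21882 and 19579, a log2 fold change of -0.39 ± 0.24 (SE) that did not pass (limma adjusted p = 0.245). Its relative Synpr (synaptoporin), known from hippocampal mossy fibres, gave 11421 and 13194 against 5296 and 3795 and was 2.84-fold higher (log2 1.51 ± 0.27 SE, limma adjusted p = 0.0142). Syngr2, the synaptogyrin found mostly outside neurons, gave 4773 and 3757 against 1357 and 1186 and was 3.46-fold higher (log2 1.79 ± 0.23 SE, limma adjusted p = 0.00713). The other 3 synaptogyrins did not pass. Sv2a, a glycoprotein of nearly all vesicles, gave 1575 and 2394 against 1234 and 1370 (log2 fold change 0.63 ± 0.25 SE, limma adjusted p = 0.103), and it was called higher without CPEB2 IgG replicate 1 (log2 fold change 0.93, limma adjusted p = 0.0463). Sv2b, chosen after its values were seen, gave 2582 and 3402 against 1453 and 2050, and its call (log2 fold change 0.83, limma adjusted p = 0.0447) held in 9 of the 17 alternatives and was lost on leaving out any 1 array. Snap91 (AP180), a clathrin adaptor of vesicle recycling, gave 4153 and 4688 against 4047 and 3289 (log2 fold change 0.33 ± 0.25 SE, limma adjusted p = 0.344).

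Several members gave different answers at different probes. Among 32 members with 2 or more probes past the filter, the log2 fold changes of the probes differed by more than 1.5 in 8 (Erc1, Erc2, Snap23, Stx18, Stx3, Stx6, Sv2c and Syn2), where Stx3 counts only through a probe that was not well above background with CPEB2 IgG. In Stx18 and Snap23 separate probes were called in opposite directions. In the fit over single probes 16 of 127 member probes were higher and 20 were lower, beside 12.7% and 14.8% of all probes. Stx18, a SNARE of the endoplasmic reticulum, had a probe with 502 and 427 against 1935 and 1695, called lower (log2 fold change -1.91 ± 0.28 SE), and a probe with 291 and 293 against 124 and 109, called higher (log2 fold change 1.38 ± 0.28 SE). Averaging the probes ended the call of Stx18 (log2 fold change -0.27, limma adjusted p = 0.387). The second probe lies 853 bases downstream of the first, belongs to another transcript model, and has the same GC content of 35%. Syn2 (synapsin II) had a probe with 52863 and 54586 against 39879 and 40462, which did not pass (log2 fold change 0.47 ± 0.28 SE), and a downstream probe with 435 and 490 against 1853 and 2237, called lower (log2 fold change -2.09 ± 0.28 SE). These probes belong to different transcript models of Syn2, so the 2 values need not concern the same mRNA. The stretches below, again 30 bases of each probe, 5′ to 3′ in the mRNA sense, show where the disagreeing values were read, with capitals for a polyadenylation signal AATAAA within the probe:
Stx18 upstream probe, lower, chr5:38527997-38528056 (mm9, plus strand): ccttgtcgagctAATAAAtgcaattacagc
Stx18 downstream probe, higher, chr5:38528850-38528909 (mm9, plus strand): attctgagaacatggaagaaaacaatcagg
Syn2 upstream probe, not called, chr6:115226390-115226449 (mm9, plus strand): tgtagggtttctgttcaggtgtttcgttcc
Syn2 downstream probe, lower, chr6:115231474-115231533 (mm9, plus strand): ttattctgaagtcatcattgctgtgaattt
Erc2 upstream probe, not called, chr14:29116077-29116136 (mm9, plus strand): aattacgatgaagaccatcaccattaccac
Erc2 downstream probe, higher, chr14:29291658-29291717 (mm9, plus strand): ttatattcatcaAATAAAccttgtttcttt
AATAAA or ATTAAA was present in 13.7% of member probes and in 13.7% of all probes. The exon, intron or UTR each probe falls in was not determined here, since no annotation of mm9 was used.

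Snap23, a relative of SNAP-25 in non-neuronal secretion, also gave readings in both directions. Its brightest probe, with the shared CA run, gave 5406 and 4718 against 2228 and 9309, so that its 2 experiments went in opposite directions (1.36 and -0.96), and without control IgG replicate 2 it was called higher (log2 fold change 1.26, limma adjusted p = 0.0453). Its upstream probe, with 110 and 85.2 against 277 and 162, was lower (log2 fold change -1.08), and its most downstream probe, with 342 and 343 against 157 and 145, was higher (log2 fold change 1.24). Stx6 and Sv2c also read higher at the downstream probe. In Stx6 the log2 fold change was -0.51 upstream and 1.68 downstream, and in Sv2c the downstream value was higher than the upstream value of -0.26 by 1.76. Stx3 was called at its middle probe (1.22) and not at its downstream probe (0.11), and its upstream probe, with 14.5 and 14.9 against 23.8 and 21.8, was not well above background on either CPEB2 IgG array. In Erc1 the lower value of -1.83 was upstream, and the downstream probe was at -0.20.

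Across the 32 members, the most downstream probe had the higher log2 fold change in 23 (71.9%), with a median difference of 0.52, where the pair of Stx3 includes its upstream probe at background with CPEB2 IgG. The same was seen over all genes with several probes, where the downstream probe was higher in 71.9% of 5459 genes with a median difference of 0.48, so the pattern was not particular to these members. Downstream probes were also poorer in GC, with a median difference, downstream minus upstream, of -4.17 percentage points in members and -3.33 over all genes. Where the GC content of the pair differed by at most 5 points, the downstream probe was higher in 9 of 11 members and in 68.6% of 2612 genes overall. These counts were made after the values were seen and are given with no test.

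**Figure D3:**
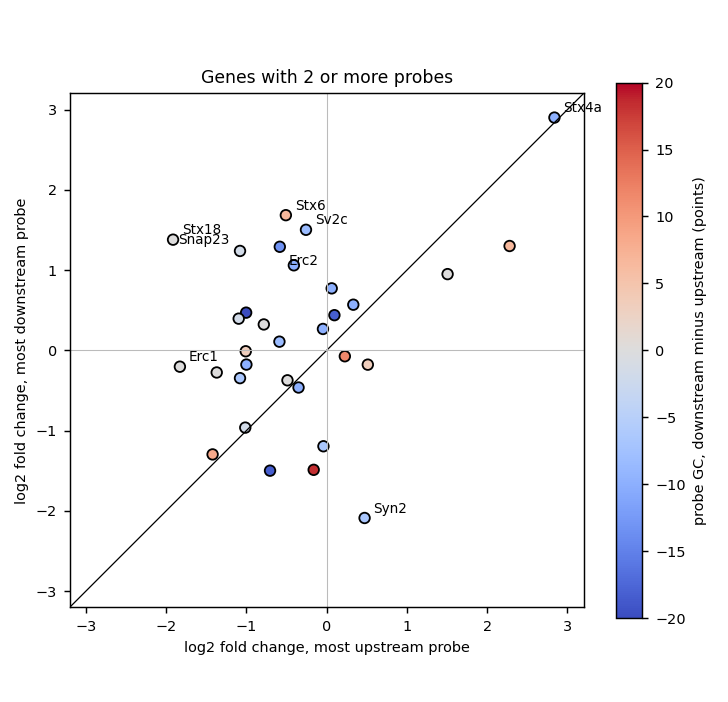
Log2 fold change at the most downstream probe against that at the most upstream probe for the 32 members with several probes, coloured by the difference in probe GC content, with a line of equality. In 23 members the point lies above the line, Stx18 and Snap23 are called lower at the upstream probe and higher at the downstream probe, and Syn2 lies far below the line.

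Base composition of the probe moved with the result. The median GC content was 35% for probes of the 12 higher members, 45% for those of the 14 lower members and 41.7% for the 58 others. Among the 28 members whose probes held up to 22 G or C bases of 60, 8 were higher and 1 was lower, while among the 14 with 29 or more, none was higher and 4 were lower. Over all genes the same bins held 36.4% higher and 9.75% lower genes, and 6.7% higher and 35.1% lower genes. Spearman's correlation of probe GC content with log2 fold change was -0.45 over the 84 members and -0.37 over all genes, a description over probes that share the same 4 arrays. Its part in the members' values was not tested. Setting each GC bin to the overall median, an alternative added after seeing the data, left 14 members higher and 12 lower, including all 12 of the higher members and 11 of the 14 lower.

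**Figure D4:**
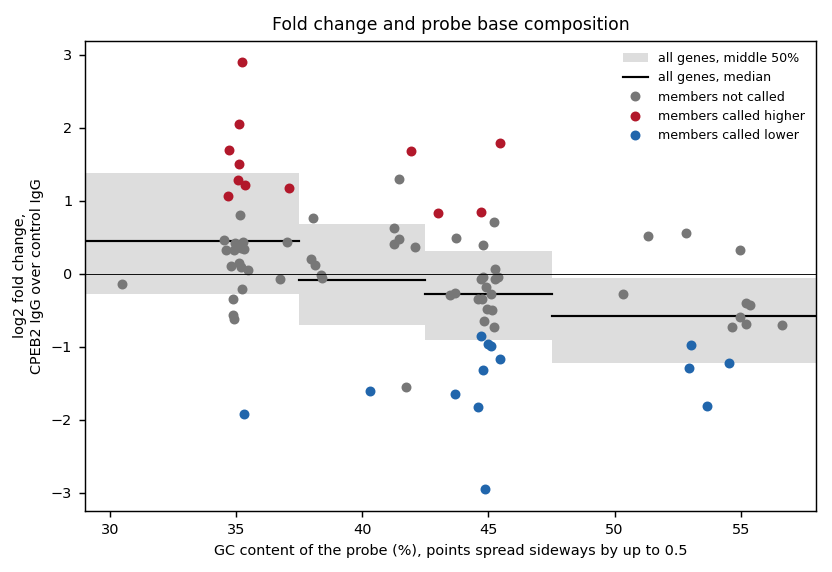
Log2 fold change of CPEB2 IgG over control IgG against the GC content of the probe for the 84 members, with the median and the middle 50% of all 19698 genes in 4 GC bins behind them. Higher members gather at low GC content and most lower members at 43.3% or more, and the medians of all genes fall from 0.44 in the lowest bin to -0.58 in the highest.

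The CPE itself was rare within the probes. Searching each probe for TTTTAT or TTTTAAT in the mRNA sense found 5 of the 139 member probes (3.6%), beside 4.54% of all probes, and 5.76% and 6.5% on the reverse strand. The 60-base probes cover a small part of each mRNA, so a probe without the motif says nothing of the rest of the transcript. The 3 that stood for their gene are shown with the motif in capitals, as 30 bases of each probe:
Stxbp5l probe, chr16:37107431-37107490 (mm9, minus strand): tttgtaccattcttgaaacTTTTATttaga
Syt2 probe, chr1:136645935-136645994 (mm9, plus strand): gcagtggcttcaTTTTAATtttagtgaaaa
Unc13b probe, chr4:43277637-43277696 (mm9, plus strand): catctttgctgtTTTTAATtattatatgtg
None of these genes was called, at log2 fold changes of 0.32 for Stxbp5l, 0.76 for Syt2 and -0.62 for Unc13b, and they are named for the motif and not for their values. Over all genes, 33.1% of 1400 probes with the motif were higher and 5.79% were lower in the fit over single probes, beside 15.6% and 17.5% of those without it. Probes with the motif had a median GC content of 35%, and those without it 43.3%. Among the members, 4 probes with the motif passed the filter and none was called.

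Genes of vesicle filling, docking and recycling outside the members were counted from a list made for this purpose. Of 66 tested, the CPEB2 precipitate held more of 9 and less of 27, with a median log2 fold change of -0.57. Over all genes 21.2% were higher and 20.4% were lower, and whether the list's shares differ from these was not tested. Of 24 endocytic genes 3 were higher and 11 were lower, and of 10 vesicle Rab GTPases and effectors 1 was higher and 6 were lower. Of 13 active zone scaffolds 2 were higher and 5 lower, and of 4 genes of SNARE disassembly none was higher and 1 lower. Vesicular transporters had 2 higher and 2 lower of 7 tested. Vesicle chaperones and other vesicle proteins had 1 higher and 2 lower of 8, with a median log2 fold change of 0.25. Slc17a6 (VGLUT2), the glutamate transporter of vesicles at the centre of the study, gave 1097 and 1232 against 288 and 334, a log2 fold change of 1.96 ± 0.23 (SE, limma adjusted p = 0.00618). Slc17a7 (VGLUT1) gave 914 and 1136 against 939 and 1246, with overlapping values (log2 fold change -0.03, 95% interval -0.64 to 0.58). Gapdh, often used as a reference, gave 48250 and 39694 against 253696 and 266689, a log2 fold change of -2.52 (limma adjusted p = 0.00543), lower under every scaling that was tried.

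Some transcripts of other cell types also moved between the antibodies. The summed signals of 3 astrocyte markers were 2870 and 2399 against 15616 and 12244. Aldh1l1 held most of the sum on the control arrays and Gfap the largest part of it with CPEB2 IgG, and these 2 of the 3 were called lower. The third, Aqp4, lay in the other direction at 601 and 608 against 431 and 405, and was not called (log2 fold change 0.59, limma adjusted p = 0.104). The summed signals of 3 microglial markers were 5402 and 3856 against 11264 and 9467, with 2 of 3 called lower. Neuronal markers summed to 40264 and 44073 against 37570 and 34789, with 1 of 5 called higher, and none of the 3 oligodendrocyte or 2 endothelial markers was called. None of the 16 was at 0. Their part in the members' values was not tested.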

How the data were processed

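RNA recovered with CPEB2 IgG or control IgG in 2 experiments was measured on 4 one-color arrays of the SurePrint G3 Mouse GE 8x60K design. The authors deposited the output of Agilent Feature Extraction 10.5.1.1, whose processed values are background-corrected spot intensities without scaling between arrays. Members and gene lists were chosen with earlier results of these data known. Control and marked spots were left out, repeated probes averaged, 66 probes without a value dropped, and the log2 intensity of 55615 probes set relative to the array's 75th percentile. The brightest probe well above background on at least 2 arrays stood for each gene. The limma 3.58.1 fit (R 4.3.3) held experiment as a block, since each lysate was divided between the antibodies, and p-values were adjusted by Benjamini-Hochberg over 19698 genes. Deviations of arrays with the same number correlated at 0.203. Summaries and figures were made in Python 3.11.15 (matplotlib 3.10.9, pandas 2.3.3, numpy 2.4.6, scipy 1.17.1). The fit was also run on simulated arrays with known changes. These had independent errors and no effect of experiment, so that run did not test the pairing. Alternatives were other scalings, background correction, filters, ways to combine probes, fits without the block or with an intensity trend, other limits, and each array or experiment left out. GC bins set to the overall median were added after seeing the data. For a single gene, exact permutation of 2 against 2 arrays, taken as unpaired, cannot give p below 0.333, and keeping the pairs leaves fewer arrangements. The fit has 1 residual degree of freedom, and the number of arrays limits the precision. SEs and 95% intervals use the moderated variance of limma, which rests largely on the other genes or probes in the fit. Each antibody had its own positions on a single slide, so position and antibody cannot be told apart. No spot of a member was saturated. Genes named are the main release genes, Gapdh, Slc17a6, Slc17a7, the 6 members with the largest called change in each direction, and members whose probes differ by more than 1.5 on the log2 scale. The search for members well above background with a single antibody looked at the brightest probe of each gene and found none. Of the main release genes, 2 are not reported here by name and count only in totals. Genes outside this rule are marked in the text as chosen after their values were seen, or named to complete a count or for a motif. Current names were looked up in RefSeq tables for GRCm38.p6, and coordinates are those of the array annotation (mm9).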

Additional observations from a re-analysis of the deposited data

How the results depend on the processing

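Calls rest on 2 arrays against 2, and many lay close to the threshold. Fits with other scalings shifted the all-gene median (log2) by 0.13 (quantile normalization), 0.23 (median centring), 0.17 (GC bins) and -0.11 (another percentile), and the members moved with it. The count of higher members left a range of 1.5 times the reported 12 only without a filter on dim probes, at 4, and on leaving out an array, where it ran from 7 to 15. The count of lower members was 9 with GC bins and 5 without a filter, and ran from 7 to 14 on leaving out an array. Over single probes, higher and lower members were 25 and 34 with normexp correction, 0 and 0 without a filter in limma (20 and 33 at an unadjusted p under 0.05), and ran from 6 to 18 and from 6 to 15 on leaving out an array, while lower probes were 31 with detection required on all 4 arrays and 35 with an intensity trend. With no filter, lower genes of the list outside the members were 13. Without the replicate block that pairs the arrays of a lysate, 12 members were higher and 12 lower, 11 of each shared with the blocked fit, and no count moved by over 1.5 times. Leaving out either experiment moved the median of the members to between -0.13 and -0.05 and the count past both limits to between 13 and 16. Directions turned in the following cases, the cause of which was not tested. With quantile normalization Bsn was at 0.052 and Vamp2 at 0.28. With median centring Slc17a7 was at 0.19 and Vamp2 at 0.17. With GC bins Slc17a7 was at 0.088, Syp at 0.10 and Unc13a at 0.15, and with bins set to the overall median Stx3 was at -0.11 and Unc13a at 0.032. With probes averaged Sv2c was at 0.62 and Syn2 at -0.81, and of all these only Syn2 passed the limma test (adjusted p = 0.0462). On leaving out an array or an experiment, the log2 fold change ran from -0.58 to 0.041 for Bsn, from -0.33 to 0.99 for Rims1, from -0.27 to 0.20 for Slc17a7, from -0.96 to 1.36 for Snap23, from -0.42 to 0.63 for Stx3 and from -0.32 to 0.20 for Vamp2. Their signs turned without CPEB2 IgG replicate 1 (Bsn, Slc17a7, Vamp2), CPEB2 IgG replicate 2 (Rims1, Stx3), control IgG replicate 1 (Snap23) or control IgG replicate 2 (Slc17a7).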

Other observations

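A few members not named by the rule, chosen after their values were seen, stood out by their spread. The signals of Syn3 at its brightest probe were 5941 and 672 (CPEB2 IgG, experiments 1 and 2) against 34229 and 1086 (control IgG). Both arrays of experiment 1 were the higher ones, as for Doc2g, and the log2 fold change was -2.44 in experiment 1 and -0.67 in experiment 2. It was not called (limma adjusted p = 0.0548). Another Syn3 probe, with 313 and 208 against 625 and 881, was called lower over single probes (log2 fold change -1.49, limma adjusted p = 0.0367). A further, dim probe was at -0.16 and was not called. Sypl gave 4656 and 7693 against 3893 and 1634 at its brightest probe, with log2 fold changes of 0.34 and 2.26 in the experiments, and was not called (limma adjusted p = 0.0991). Its other probe, with 1222 and 1929 against 333 and 323, was called higher (log2 fold change 2.28, limma adjusted p = 0.00879).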
